A study of Homo sapiens with 15 samples.

Results

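The olfactory receptor genes of chromosome 11 are 171 protein-coding genes whose GENCODE symbol has the form of an olfactory receptor and whose region holds at least 5 CpGs. A region is the gene plus 1 kb upstream on hg38. By name 172 genes qualified, and OR4C12, with 4 CpGs, was left out. They are 171 of 19966 protein-coding genes that met the same CpG minimum. For testing, a region also needed at least 50 reads in every library: 167 of the 171 members and 19503 of all genes passed, and OR4A47, OR4C13, OR5T3 and OR5G3 did not.

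Olfactory receptors are the odorant-binding G-protein-coupled receptors of the nose. Each mature olfactory neuron transcribes a single receptor allele, and in other tissues the genes are usually silent. They lie in tandem clusters, mostly have a coding sequence without introns, and fall into a class I, related to receptors of fish, and a class II, found in land vertebrates. DNMT1 copies CpG methylation onto the new DNA strand after replication, and UHRF1 recognises hemimethylated CpGs and brings DNMT1 to them.

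The cells were HCT116, an established line from a human colorectal carcinoma, and their DNA methylation was read genome-wide after bisulfite treatment. They carried a doxycycline-inducible shRNA against UHRF1 (clones Cl.3, Cl.6 and Cl.9, each grown from a single cell after serial dilution) or against DNMT1 (bulk populations R1 and R2). Each of the 5 populations had a Baseline library (day 14, no doxycycline), a Knockdown library (day 14, with 10 ng/mL doxycycline) and a Recovery library (day 28, 14 days with doxycycline and then 14 without), 15 libraries in all. Between the shRNAs, the targeted gene, clonality and the count table all changed together and cannot be told apart. Among the clones the table changed too, since Cl.3 and Cl.6 shared one and Cl.9 had its own. The level, called mC, is the percent of reads at the CpGs of a region that were methylated. Throughout, reads of a region were summed over its CpGs, so a read over several CpGs counts at each. The members had 36 to 26997 such reads per region and library (median 404). The 95% Wilson interval of a level thus reached a median of 4.01 points to either side and at most 13.7, for counting error only. It takes CpGs of the same read as independent and may therefore be too narrow. Values for the clones follow the order Cl.3, Cl.6, Cl.9, and those for the bulk populations the order R1, R2. No RNA was measured in the files used here, so neither the silence of the receptors nor the depletion of UHRF1 or DNMT1 was checked.

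The members formed 7 groups along chromosome 11 when starts within 1 Mb of the next were chained. The first, at 4.37 to 7.94 Mb, held 67 members, among them all 55 of class I (families 51 to 56), and surrounds the beta-globin genes. Clusters of 7 and 2 members lay at 48.22 to 48.49 Mb and 49.95 to 50.03 Mb. Another 51 members lay at 54.6 to 56.99 Mb and 21 at 58.02 to 59.71 Mb. OR2AT4 stood alone near 75.1 Mb, and 22 lay between 123.75 and 124.58 Mb. The regions of the tested members had a median of 6.65 CpGs per kb, against 7.31 in 206 tested olfactory receptor genes of other chromosomes, 9.18 in 71 other genes inside the same clusters, and 14.9 in all other protein-coding genes. Of the members' CpGs, 68.9% were low-density, with the nearest CpG at 20 bp or more, against 47.7% over all other genes. OR51B5 and OR9Q1 have long introns, with 1295 and 1055 of the 7576 CpGs, and 15 members share sequence with another member, so sums over CpGs and medians over genes are named apart below.

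A CpG at a fixed place in the receptor allows the same position to be followed across members. The DRY motif lies at the end of the third membrane-spanning helix and takes part in G-protein coupling. Its arginine codon was spelled CGN in 127 of 164 aligned members, so that a CpG opens the codon. Another 9 had an AGN codon, 23 had no arginine there, and in 5 the motif was not found. Over the 110 members with 50 or more Baseline reads at this CpG, summed over the 5 populations, 18 were under 10% and 25 over 90%, with a median of 54.4%. OR6Q1 was lowest, with 0.658% of 152 reads, although its whole region averaged 43.2%. OR51S1 had 100% of 115 reads, with a region average of 50.2%. The codon's level and the mean of its region differed by 23.5 points on average, with Spearman's rho of 0.58 across these members, a description over genes that share libraries. The spread of other single CpGs around their region was not determined, so these values do not set this codon apart. A C-to-T variant at the site would read as unmethylated, and this was not tested.

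**Figure D1:**
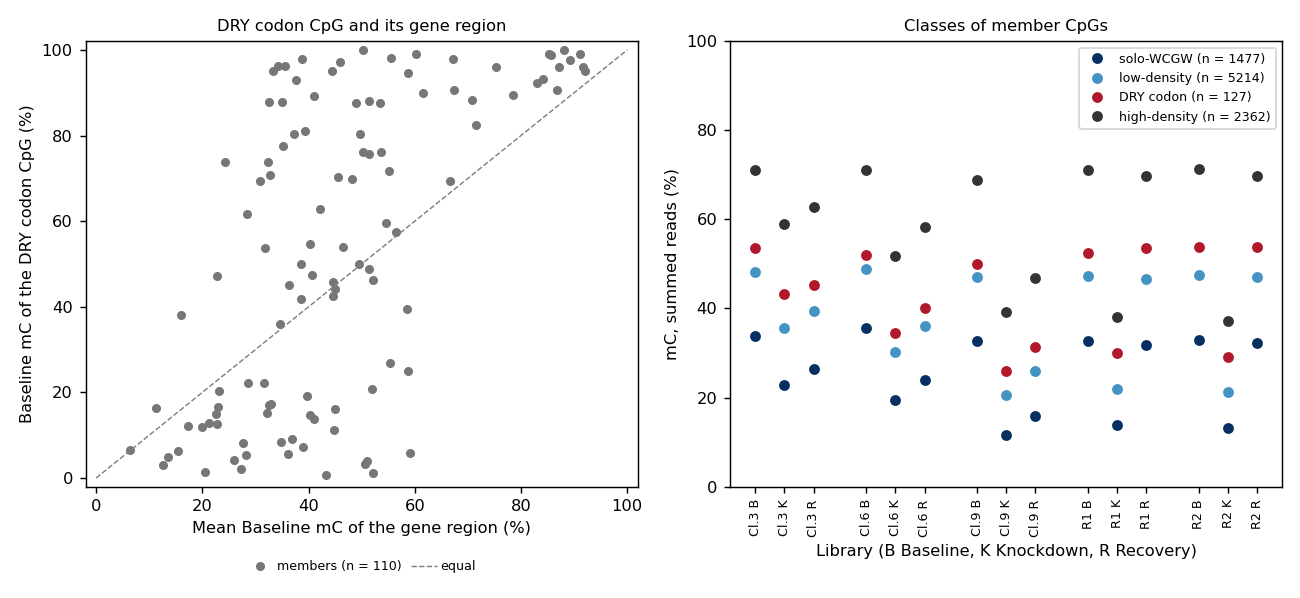
Left, each point is a member with 50 or more Baseline reads at the CpG of the DRY arginine codon: its mean Baseline mC over the region (x, percent) against the codon's Baseline mC summed over the 5 populations (y, percent). Right, mC from summed reads (percent) of solo-WCGW, low-density, DRY codon and high-density CpGs of the members in each of the 15 libraries. The points of the left panel spread from 0.658% to 100%, and in the right panel high-density CpGs lie on top and solo-WCGW CpGs at the bottom of every library.

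At Baseline the tested members had a median mC of 42.7% in Cl.3, 43.9% in Cl.6, 39.4% in Cl.9, 44.2% in R1 and 44.1% in R2. The median of all other protein-coding genes was 79.5%, 81.1%, 75.4%, 77.6% and 77.4% in the same order. The members minus all other genes gave -35.3 ± 1.88 points (SD, n = 5 populations). The difference was -9.62 ± 2.47 points (SD, n = 5) from the olfactory receptor genes of other chromosomes and -25.2 ± 2.45 points (SD, n = 5) from the other genes of their own clusters, negative in 5 of 5 populations each. The exact sign-flip permutation test gave p = 0.062, two-sided, for each, the smallest p that 5 populations allow, and 0.103 after Benjamini-Hochberg adjustment over 28 comparisons. With reads summed over genes in place of medians the 3 differences were -20.6, -4.84 and -13.9 points. The other genes of the clusters, here and below, include HBG2 and HBE1, whose annotated regions share CpGs with members. The members thus had less mC than any of the 3 sets in every population, by an amount that depended on the summary.

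**Figure D2:**
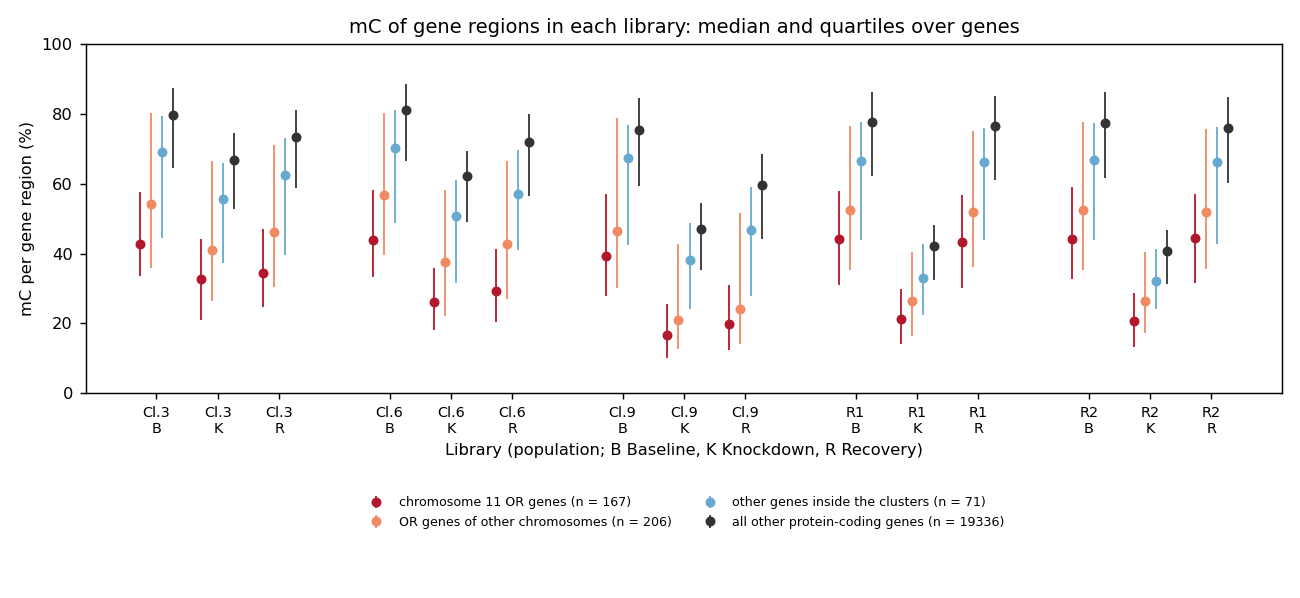
Median mC per gene region (points, percent) with the interquartile range (lines) for the 4 gene sets in each library; the x axis gives the population and stage. The chromosome 11 olfactory receptor genes are the lowest of the 4 sets in all 15 libraries, and the R1 and R2 Recovery values (43.4% and 44.4%) stand beside their Baseline values while those of Cl.3, Cl.6 and Cl.9 (34.5%, 29.2% and 19.9%) stay below.

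The members differed widely among themselves. By the mean over the 5 Baseline libraries, 15 of the 171 were under 20% mC, 120 between 20% and 60%, 17 between 60% and 80%, and 19 at 80% or more. Across the 167 tested members the level went with CpG density (Spearman's rho 0.51, a description over genes that share libraries). The lowest were OR4C3 (6.35%), OR4A15 (11.3%), OR4C16 (12.7%), OR5AL1 (13.3%) and OR5T2 (13.5%), class II genes of the clusters that start at 48.22 and 54.6 Mb. OR4C3, with 6 CpGs, had 4.65%, 4.42%, 2.63%, 9.41% and 10.6% in Cl.3, Cl.6, Cl.9, R1 and R2, and the bulk populations lay above the clones. The highest were OR51B6 (94.3%), OR10V1 (93.8%), OR51I2 (92.1%), OR51I1 (91.6%) and OR4D9 (91.1%).

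Some members at 80% or more stood in stretches, which were picked by that level, and others, such as OR2D3 and OR2AT4, stood outside them. The 8 neighbours from OR51B4 to OR51I2 (chr11:5301014-5505652), next to the beta-globin genes, averaged 84.3% to 94.3% at Baseline. Another 5, from OR4D6 to OR10V1 (chr11:59456961-59713845), averaged 82.9% to 93.8%. The annotated region of OR51B5 overlaps those of OR51B2, OR51B6, OR51M1, OR51Q1, OR51I1, OR51I2 and OR52D1, but not that of OR51B4, so these genes share CpGs with it. Genes of class I and class II had similar medians at Baseline, 44.3 ± 1.24% and 42.3 ± 2.88% (SD, n = 5), with an exact sign-flip p of 0.5. From summed reads class I lay 12 points above class II. In that sum OR51B5 had by far the most reads of class I, 16011 in Cl.3 at Baseline, and it averaged 86.9% mC. The summed difference without OR51B5 was not determined.

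**Figure D3:**
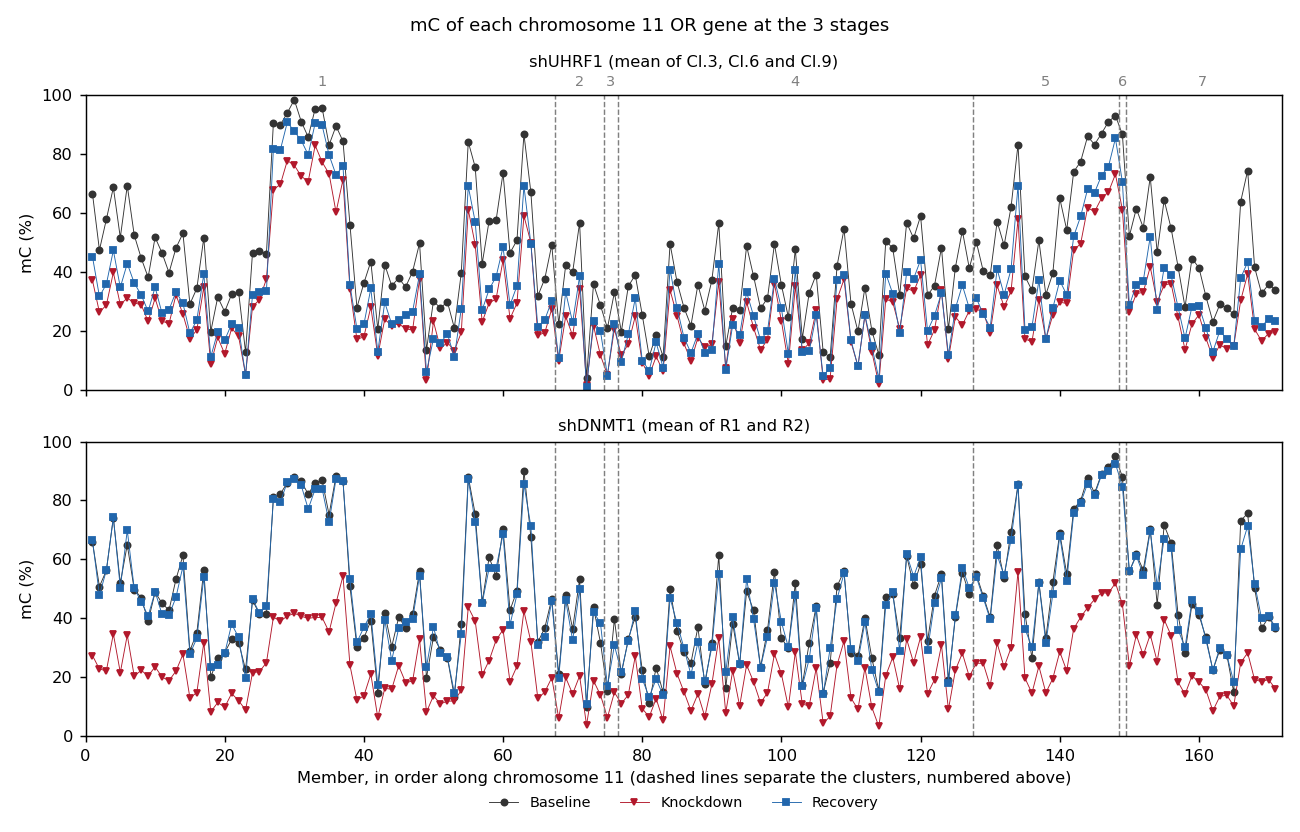
mC (y, percent) of each of the 171 members in their order along chromosome 11 (x), at Baseline (black), Knockdown (red) and Recovery (blue), as the mean of the 3 shUHRF1 clones (top) or the 2 shDNMT1 populations (bottom); dashed lines separate the 7 clusters. Plateaus stand out at OR51B4 to OR51I2 and at OR4D6 to OR10V1, and blue lies close to red over most members in the top panel and close to black in the bottom panel.

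At Knockdown, mC fell in nearly every member under either shRNA. In the shUHRF1 clones the median member went from 42.7% to 32.7% in Cl.3, from 43.9% to 26.2% in Cl.6 and from 39.4% to 16.6% in Cl.9. In the shDNMT1 populations it went from 44.2% to 21.3% in R1 and from 44.1% to 20.6% in R2. From summed reads the change was -19.4 points over the clones (-12.1, -19 and -27.1) and -27.8 over the bulk populations (-27.5 and -28.2). The 3 clones thus differed from each other by more than R1 from R2. The difference of 8.41 points between the shRNAs gave p = 0.2 in an exact two-sided permutation test of 3 against 2 populations, the smallest p it allows.

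Gene by gene, edgeR's quasi-likelihood test called 161 of 167 members lower in the shUHRF1 clones and 162 in the shDNMT1 populations at an adjusted p under 0.05, and none higher. Of all 19503 genes 99.5% and 99.7% were called lower, so a fall was not particular to the members. The members' median log2 odds ratio of methylation was -1.32 under shUHRF1 and -1.70 under shDNMT1, against -1.38 and -2.27 over all genes. Members not called under shUHRF1 were OR51V1, OR52L1, OR4C3, OR4C16, OR5D16 and OR8K5, and under shDNMT1 OR56B4, OR4A5, OR4A15, OR8K5 and OR8D2. OR8K5 alone was called under neither, with 17.4% mC at Baseline, 9 CpGs, and changes of -4.02 ± 4.95 points (SD, n = 3) and -6.48 ± 0.545 points (SD, n = 2).

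The largest falls in the clones were those of OR52I1 (-38.1 ± 9.7 points), OR5B21 (-35.3 ± 10.9), OR8B3 (-35.1 ± 10.2) and OR8B2 (-33.6 ± 8.15; SD, n = 3 for each). OR5G3, at -32.1 ± 19.6 points, ranked with them but was too thinly covered to be tested. OR5B21 went from 62.3%, 65.2% and 67.5% in Cl.3, Cl.6 and Cl.9 to 39.3%, 26.4% and 23.5%, and from 67.4% and 70.4% in R1 and R2 to 27.9% and 29.3%. At the DRY codon OR8B3 had 0 Baseline reads over the 5 libraries, OR8B2 had 6 and OR52I1 had 11, although the whole region of OR8B3 had 204 to 407 reads per library. Whether reads were assigned uniquely to these genes was not tested. The smallest changes were those of OR4C3 (-2.17 points), OR5D16 (-3.79), OR8K5 (-4.02), OR4C16 (-4.96) and OR4A15 (-6.57). All but OR5D16 (32%) began under 20% mC.

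Relative to its start, the receptor set kept less, but the sets were not matched by Baseline level. Taking means over genes, the members kept 75.8%, 63.2% and 46.9% of their Baseline mC in the clones. In the bulk populations they kept 48.8% and 47%. All other genes kept 83.9%, 76.5%, 63%, 54.6% and 53.1%. The 19 members at 80% or more at Baseline kept 86.3%, 78.5% and 63.9% in the clones, slightly above all other genes. They kept 51.5% and 51.3% in R1 and R2, below all other genes. The 120 members between 20% and 60% kept 72.9%, 58.6%, 41.7%, 48.1% and 46%. The difference in the share kept was -9.86 ± 4.57 percentage points (SD, n = 5), and it was -4.07 ± 0.959 from the olfactory receptor genes of other chromosomes and -6.63 ± 3.22 from the cluster neighbours, each negative in 5 of 5 populations (exact sign-flip p = 0.062, adjusted 0.103). In points of mC, from medians, the members' change minus that of all other genes was 5.97 ± 5.5 points (SD, n = 5), positive in 5 of 5 populations. From summed reads it was 2.46 points, with 0.288, -0.346 and 0.367 in the clones against 5.82 and 6.17 for R1 and R2, so that in the clones the points lost were nearly the same.

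The interaction of shRNA and stage compares, gene by gene, the change in the shUHRF1 clones with that in the shDNMT1 bulk populations. It cannot separate the targeted gene from clonality and the count table. At an adjusted p under 0.05, edgeR called 17 of 167 members (10.2%) with a smaller fall under shUHRF1 than under shDNMT1, where it called 82.8% of all genes, and the median interaction was 0.40 against 0.92 on the log2 odds scale. Among the olfactory receptor genes of other chromosomes 37 of 206 were called, with a median of 0.49. A member had a median of 383 reads per library and another gene 6820, and their part in the lower count was not tested. The smallest adjusted p were those of OR2AT4, OR10V1, OR51M1, OR51B5 and OR4D9. OR2AT4, a receptor also described in skin, went from 86.7%, 88.3% and 84.9% to 70.6%, 65% and 47.8% in the clones, and from 88.4% and 87.4% to 46.2% and 43.3% in R1 and R2. Its interaction was 1.12 ± 0.313 (SE) with an adjusted p of 0.000876, and Cl.9 came close to the bulk populations. OR10V1 had the largest interaction of the 17, 1.81 ± 0.511 (SE), with an adjusted p of 0.000969. The count moved to 76 without Cl.9, to 8 without R1 and to 3 without R2, while 93.9%, 51.6% and 29% of all genes were called. It was 42 by limma, with 85.4% of all genes, and 0 by edgeR without the population block, with 0% of all genes and 4 members at an unadjusted p under 0.05.

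At Recovery the median member of the bulk populations stood within 1 point of Baseline, and that of the clones did not. The median member stood at 34.5%, 29.2% and 19.9% in the clones, and at 43.4% and 44.4% in R1 and R2. edgeR called 152 of 167 members still lower than Baseline in the shUHRF1 clones, where 91.3% of all genes were. Without the population block the count was 63, with 46.8% of all genes called. In the shDNMT1 populations edgeR called 0 of 167, as it called 0 of all 19503 genes (0%). No member there had an unadjusted p under 0.05, 236 of all genes did, and limma also called 0 members. Both fits shared their estimate of the spread over all 15 libraries, so the differences between clones entered these tests too. The 0 calls therefore do not show that every member was back at Baseline. The Recovery change relative to Baseline was called different between the shRNAs in 94 of 167 members (56.3%), lower under shUHRF1 in each, against 59.9% of all genes. This share is near that of all genes, and the count was 1 without R1, 4 without R2, 40 without Cl.6, 59 without Cl.9 and 137 without Cl.3, where 9.13%, 9.58%, 33.9%, 55.3% and 82.8% of all genes were called. Without the population block edgeR called 0, with 14 at an unadjusted p under 0.05 and 0% of all genes called, and limma called 138, with 58% of all genes.

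In the clones the members as a set regained a smaller share than all other genes. The sets were not matched by Baseline level. The members regained 28.4%, 23.6% and 19.4% of the lost mC in Cl.3, Cl.6 and Cl.9, from means over genes. All other genes regained 50.6%, 49% and 42.4%, so that the members minus all other genes gave -23.5 ± 1.66 percentage points (SD, n = 3), negative in 3 of 3 clones. The olfactory receptor genes of other chromosomes regained 32.6%, 35.3% and 23.7%, and the cluster neighbours 37.9%, 39.9% and 33.3%. In R1 and R2 the members regained 97.9% and 95.2% and all other genes 97.1% and 96.3%. Over all 5 populations the difference from all other genes had an exact sign-flip p of 0.125, since R1 lay on the other side. From summed reads the gap to other chromosomes' receptors in the clones closed to 0.372 points, with the members regaining more in Cl.3 and Cl.9 and less in Cl.6, whereas that to all other genes was -18.7 points.

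**Figure D4:**
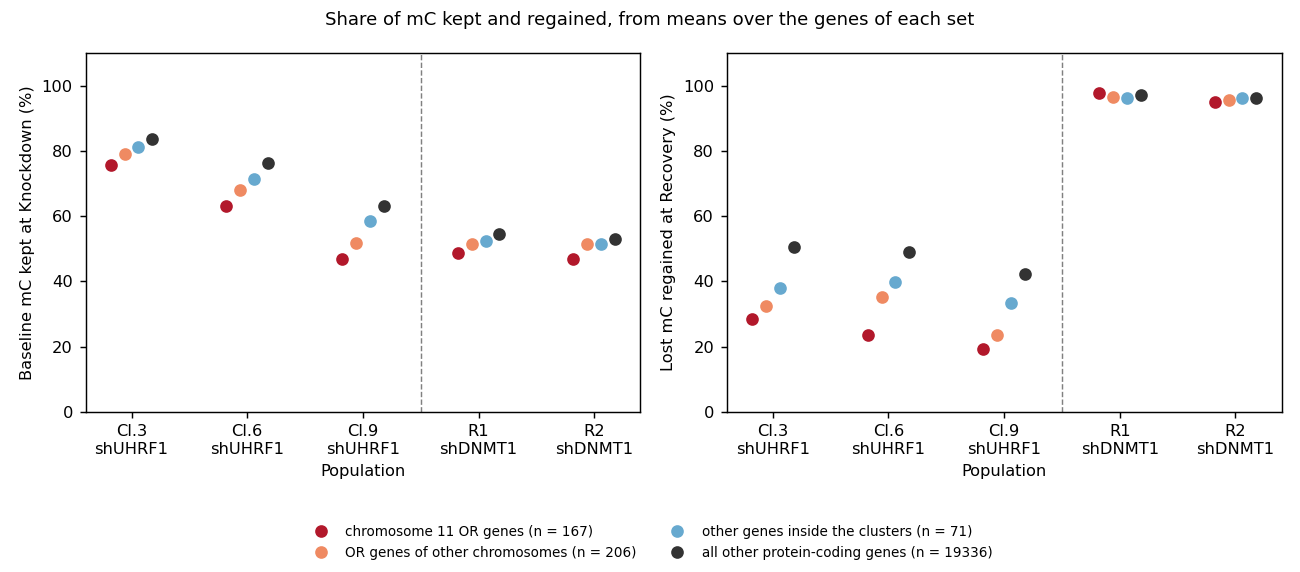
Left, the percent of Baseline mC still present at Knockdown, and right, the percent of the lost mC regained at Recovery, for 4 gene sets (colours) in each population (x), computed from means over the genes of each set. In Cl.3, Cl.6 and Cl.9 the chromosome 11 olfactory receptor genes lie lowest in both panels, and in R1 and R2 all sets regain between 95.2% and 97.9%.

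The regain was uneven along the chromosome. In the stretch from OR51B4 to OR51I2, the 8 members averaged 92.5%, 83.2% and 89.1% at Baseline, Knockdown and Recovery in Cl.3, then 92.9%, 76.5% and 88.9% in Cl.6, and 92.4%, 63.5% and 79.4% in Cl.9. They regained 63.8%, 75.8% and 54.8% of the loss. In R1 they went from 85.1% to 40.3% and back to 83.4%, and in R2 from 84.6% to 40.5% and 82.4%. The stretch from OR4D6 to OR10V1 started at 88.3%, 91.1% and 84.8% in the clones, below the first stretch in each, and regained 26.2%, 48.7% and 32.3%. By Baseline level, the 120 members between 20% and 60% mC regained 24.2%, 20% and 15.4% in the clones, and the 19 at 80% or more 47.1%, 54.1% and 42.5%. The latter values stood near the 50.6%, 49% and 42.4% of all other genes, whose Baseline level was higher than that of most members. In Cl.9, 148 of 171 members were still 10 points or more below Baseline, in Cl.6 125, in Cl.3 56, in R1 1 and in R2 2. These are 86.5%, 73.1%, 32.7%, 0.585% and 1.17% of the members, against 74.1%, 36.1%, 10.6%, 0.398% and 0.336% of the 19336 other tested genes, which had more reads each. The 171 members include OR4A47, OR4C13, OR5T3 and OR5G3, which were below the read minimum that the other genes met.

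The smallest adjusted p for the Recovery difference belonged to OR4D9, OR9Q1, OR51B6, OR10A2 and OR5A1. OR4D9 had 91.3%, 93.7% and 88% at Baseline in the clones and 82%, 80.4% and 65% at Recovery, while R1 and R2 went from 91% and 91.7% to 90.9% and 89.4%. Its difference was -1.49 ± 0.35 (SE) on the log2 odds scale, with an adjusted p of 0.000253. All 3 clones ended below every Baseline value, and the bulk populations did not. OR10A2 changed from 68.7%, 69.1% and 83% to 48.9%, 46.2% and 50.4% in the clones.

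Members with a known ligand or with transcripts reported outside the nose were taken as a list of 11. OR51B4 has been described in colon cancer cells, HCT116 among them. Its region (chr11:5301014-5302946, 15 CpGs, minus strand) was highly methylated at Baseline, at 89.2%, 91.2% and 91.5% in the clones and 82.4% and 80.1% in R1 and R2. It fell to 72.2%, 71.2% and 60.5% in the clones and to 42.2% and 38.6% in the bulk populations, and stood at 86.4%, 84.4%, 74.7%, 80.8% and 80.1% at Recovery. The 5 members closest to it over the 15 libraries, by mean absolute difference, were its neighbours OR51B5 (1.85 points), OR51Q1 (3), OR51M1 (3.27), OR51I2 (5.81) and OR52D1 (5.84). OR52D1 went in the clones from 79%, 85.8% and 84.4% to 78.1%, 81.6% and 60.3%, while R1 and R2 went from 78.4% and 71.9% to 34.8% and 35.9%. Cl.3 and Cl.6 thus kept nearly all of its methylation and Cl.9 did not.

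OR51E1 and OR51E2, known from prostate, had lower levels. OR51E2 (144 CpGs) had 39.5%, 40%, 35%, 38.3% and 39.8% at Baseline in Cl.3, Cl.6, Cl.9, R1 and R2, and 29.5%, 24.3%, 15.9%, 19.9% and 20.9% at Knockdown. OR51E1 averaged 45.6 ± 4.01% (SD, n = 5) at Baseline and changed by -15.8 ± 3.98 points under shUHRF1 and -24.7 ± 1.01 under shDNMT1. OR51L1, another class I receptor with known ligands, began at 27.3 ± 2.48% (SD, n = 5).

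Among receptors with a known odorant, OR5A1, the main receptor for the violet odorant beta-ionone, had at Baseline 77.4%, 85.4%, 69.6%, 79% and 80.8%. It had 59%, 58.6%, 31.2%, 41.1% and 39.6% at Knockdown and 66%, 70.6%, 39.9%, 78.1% and 80.3% at Recovery. OR5AN1, a musk receptor in the same cluster, averaged 54.6% and changed by -25 ± 6.59 and -32.9 ± 0.113 points. OR6A2, which responds to aldehydes such as those of coriander, had 47.3% and 47.8% in Cl.3 and Cl.6 but 77% in Cl.9. OR2AG1, a receptor for amyl butyrate, had 34.3%, 30.7% and 63.3% in the same clones. OR10G4 (guaiacol), which also had 0 Baseline reads at the DRY codon, averaged 41.5%, OR5P3 31.8% and OR8D1 27.7% over the 5 populations. All 11 were called lower under each shRNA, as were 99.5% and 99.7% of all genes. OR56A3, with 137 CpGs, is of the 5 members richest in CpGs together with OR51B5, OR9Q1, OR51E2 and OR2AT4, and it changed by -12.1 ± 8.85 and -23.1 ± 4.09 points.

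Some members differed between the clones at Baseline. Cl.9 stood 10 points or more above the mean of Cl.3 and Cl.6 in 14 of 171 members and as far below it in 35 (8.19% and 20.5%), against 0.636% and 7.03% of the 19336 other tested genes. Cl.3 and Cl.6 were that far apart in 32, and R1 and R2 in 5 (18.7% and 2.92%), against 2.62% and 0.434% of the other genes. The members had fewer reads, with a median of 383 against 6820 per library, and the part of counting error in these shares was not tested. The member counts also include OR4A47, OR4C13, OR5T3 and OR5G3, which were below the read minimum that the other genes met. OR4A47, OR5T3 and OR5G3 were among the 5 members apart between R1 and R2. Of the 49 members past this limit in Cl.9, 19 stood in 5 runs of 3 or more neighbours, which were picked out after their values were seen. The positive runs were OR52E1, OR52A5, OR52A1 and OR51V1 (chr11:5069572-5200682, 10.2 to 29.4 points), beside the high stretch of OR51B4, and OR2AG2, OR2AG1, OR6A2, OR10A5 and OR10A2 (chr11:6765626-6874717, 13.4 to 30.8 points). OR52A5 had 66.2% in Cl.9 against 33.9% in Cl.3 and 39.7% in Cl.6, with the bulk populations at 46.4% and 45.8%. Negative runs were OR5D18 to OR5W2 (4 members, 11 to 18.7 points lower) and OR5M10 to OR5AP2 (3 members), both in the cluster at 54.6 to 56.99 Mb, and OR5AN1 to OR5A1 (3 members). These runs rest on 1 Baseline library of Cl.9 and have no replicate. That library also came from a separate count table and was deeper, with 587904039 reads summed over CpGs against 329099943 in Cl.3 and 362053196 in Cl.6. The part of table and depth in these differences was not tested.

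**Figure D5:**
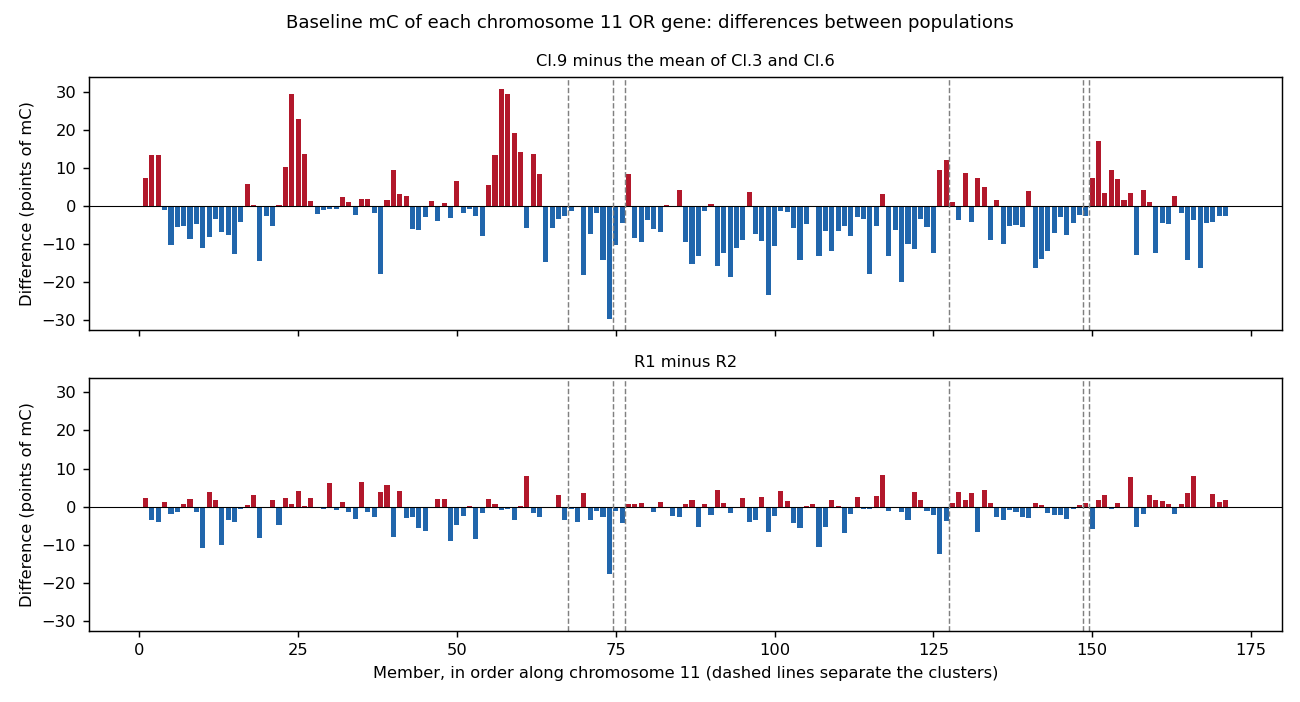
Difference in Baseline mC (y, points) for each of the 171 members in their order along chromosome 11 (x): Cl.9 minus the mean of Cl.3 and Cl.6 (top) and R1 minus R2 (bottom), with red above and blue below 0. The red bars of the top panel reach 30.8 points at OR2AG1, and the lower panel is flatter, with 5 members at 10 points or more. OR4A47, OR5T3 and OR5G3, which were below the read minimum, are among these.

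CpGs of different density inside the members were methylated to different levels. From summed reads, the 5214 low-density CpGs had 48.2%, 48.9%, 47%, 47.3% and 47.5% at Baseline in Cl.3, Cl.6, Cl.9, R1 and R2, and the 2362 high-density CpGs 71%, 71.2%, 68.9%, 71.2% and 71.4%. Low-density minus high-density CpGs gave -23 ± 0.893 points (SD, n = 5) at Baseline and -9.54 ± 2.54 percentage points in the share kept at Knockdown, negative in 5 of 5 populations each (exact sign-flip p = 0.062, 0.101 after adjustment over 42 comparisons). In points, the Knockdown change of low-density minus high-density CpGs was 3.82 ± 3.9 (SD, n = 5), positive in 4 of 5 populations (exact sign-flip p = 0.125), and 5.27 ± 4.55, positive in 5 of 5, without OR51B5 and OR9Q1. For the share regained the difference was -0.742, -2.41 and -4.84 percentage points in the clones against 1.61 and 3.11 for R1 and R2, with an exact sign-flip p of 0.625 over the 5. Without OR51B5 and OR9Q1 it was -4.71, -7.49 and -7.86 in the clones against 2.26 and 3.57 for R1 and R2. With the density limit at 35 bp in place of 20 bp it turned positive in Cl.3 and Cl.6, with 2.43, 0.833 and -0.837 in the clones against -0.8 and 2.62 for R1 and R2, so the direction in the clones depended on the limit. The 1477 solo-WCGW CpGs, which have A or T on both sides and no other CpG within 35 bp, had 33.9%, 35.6%, 32.7%, 32.7% and 32.9% at Baseline and 22.7%, 19.4%, 11.6%, 13.9% and 13.2% at Knockdown. The upstream 1 kb minus the coding sequence gave -6.5 ± 0.691 points at Baseline (SD, n = 5, exact sign-flip p = 0.062).

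The DRY codon CpGs had 53.6%, 51.9%, 50%, 52.5% and 53.9% at Baseline from summed reads, and the 1255 other coding CpGs of those genes 51.8%, 52.9%, 50.1%, 52.7% and 52.6%. The difference was 0.364 ± 1.2 points (SD, n = 5, exact sign-flip p = 0.562). At Knockdown the codon CpGs had lost 2.18 ± 1.08 points less than the other coding CpGs in 5 of 5 populations (exact sign-flip p = 0.062), but among low-density CpGs alone the difference was -0.306 ± 1.58 points (p = 0.625).

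The authors' domain lists were called separately in each library, so they follow the same methylation values and are given as a description. At Baseline, a partially methylated domain covered at least 50% of the region in 101, 150, 33, 161 and 161 of the 171 members in Cl.3, Cl.6, Cl.9, R1 and R2. A highly methylated domain did so in 20, 20, 24, 9 and 10 members. Of the other tested genes 6.04% to 15% lay in the former and 78.9% to 81.9% in the latter. In all 5 populations 24 members lay in partially methylated domains and 8 in highly methylated ones, OR10V1, OR4D9, OR2D3 and OR2AT4 among the latter. The count of 24 is bounded by the 33 of Cl.9, and the share of other genes over all 5 populations was not determined. Regions listed as unmethylated covered at least 50% of the region in 58, 59, 71, 67 and 62 members at Baseline, 105, 133, 148, 160 and 159 at Knockdown, and 95, 112, 139, 59 and 64 at Recovery. At Recovery the bulk populations were within 8 members of their Baseline count, and the clones were 37 or more above it. Of the other tested genes, unmethylated regions covered as much of 3.07% to 4.28% at Baseline and 7.2%, 9.17%, 17.3%, 27% and 29.7% at Knockdown. At Recovery they did so for 6.24%, 7.31%, 12.2%, 3.69% and 3.77%, so these shares too stayed above Baseline in the clones. The regions of other genes are longer, with a median of 29.8 kb against 2.09 kb, so the shares of the 2 sets are given side by side only. The lists overlap: in R1 at Baseline partially methylated domains covered 161 of the 171 members and unmethylated regions 67. A region listed as unmethylated can also hold methylation. In R1 at Knockdown 160 members were so listed, while the median tested member had 21.3% mC.

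A list of 19 genes of olfactory signalling holds the G-protein subunit GNAL, the adenylyl cyclase ADCY3, the cyclic-nucleotide-gated channel subunits CNGA2, CNGA4 and CNGB1, the marker OMP, the chaperones RTP1, RTP2 and REEP1, and regulators such as LHX2, EBF1, EMX2 and LDB1. All 19 were tested, with a median mean Baseline mC of 80.9% (33.7% for EBF1 to 94.7% for OMP), close to the 75.4% to 81.1% of all other protein-coding genes. All 19 were called lower under each shRNA and at shUHRF1 Recovery, where 99.5%, 99.7% and 91.3% of all genes were, and 0 at shDNMT1 Recovery, where edgeR called 0 of all genes too. CNGA4, which lies inside the first cluster, averaged 50.4%. For 13 of the 19 a smaller fall under shUHRF1 than under shDNMT1 was called, beside 82.8% of all genes. ADCY3, which makes the cyclic AMP of the odour response, averaged 91% at Baseline and changed by -18.1 points under shUHRF1 and -37.1 under shDNMT1. GNAL, at 80.9%, changed by -22.1 and -37.4 points, LHX2 by -19.7 and -43.4, CNGB1 by -28 and -46.2, and ANO2, a chloride channel, by -28.6 and -38.2. In the 1 kb upstream alone the interaction was -0.167 for ADCY3 and -0.0366 for GNAL on the log2 odds scale, against 1.19 and 0.891 over the whole region. The upstream values differ in sign but are small and given without their error, so they do not show an opposite effect.

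The beta-globin genes lie among the class I receptors. HBB averaged 69.1% at Baseline, HBD 61%, HBG1 77.3%, HBG2 87.6% and HBE1 87.7%. HBB changed by -25.9 points under shUHRF1 and -33.4 under shDNMT1. The annotated regions of HBG2 and HBE1 run across the stretch from OR51B4 to OR51I2, so they share CpGs with these receptors. They also share most of their CpGs with each other, so their values are not separate results. All 5 were called lower under each shRNA and at shUHRF1 Recovery, where 99.5%, 99.7% and 91.3% of all genes were. The interaction at Knockdown was called for 2 of them, HBE1 and HBG2, with the smaller fall under shUHRF1, and for 82.8% of all genes. In its coding sequence alone the interaction of HBE1 was -0.168 on the log2 odds scale, against 0.921 over the whole region. The coding value differs in sign but is small and given without its error, so it does not show an opposite effect.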

How the data were processed

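Per the submitters' methods, the authors aligned the bisulfite reads to hg38 with Meth10X and deposited, per CpG and library, the counts of methylated reads and of covering reads in 3 tables, and per library a domain list made with MethylSeekR and bedtools (2.25.0). All 29456478 positions were read, and the 30 columns of counts were mapped to the 15 libraries through their labels. The covering reads summed over CpGs came to 317670080 to 593644411 per library. All 1333114 positions of chromosome 11 in the tables were CpG cytosines of hg38. Regions came from GENCODE v44 (gene plus 1 kb upstream). Per region, methylated and unmethylated counts were tested with edgeR 4.0.16 (quasi-likelihood, population as block, adjusted over 19503 genes), with limma 3.58.1 as an alternative, on R 4.3.3. The main fit took all 15 libraries together, with an estimate of the spread shared by both shRNAs. Both were run on simulated counts with falls of 1 and 2 on the log2 odds scale, each planted in 100 genes. Of the calls, 4.83% were false with edgeR and 5.71% with limma. The simulation covered the shUHRF1 Knockdown contrast only and not the interactions, and in the real data nearly all genes fell. Differences between sets used exact sign-flip permutation over populations. Gene symbols were matched as GENCODE gives them. A DRY motif was accepted with at least 6 of 10 positions matched, and sequences around it are not reported here.

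Population is the block because the labels give the 3 stages of each clone or bulk culture the same name. Deviations from the group means correlated between stages of a population with r of 0.028 to 0.77 over the members, the lowest in R1 and R2. R1 and R2 differed by a chi-square of 1.10 per member at Baseline, near sampling noise, and of 7.54 per gene over all other genes, which had more reads. These values cannot tell separate cultures from repeat libraries of the same culture. R1 and R2 were counted as separate populations because the study names them as 2 bulk populations. Whether they were transduced separately is not given in the sources used here, so p-values measure the spread between these samples. The members, lists and tests were chosen with earlier results of these data known. Named members are those with a known odorant or ectopic transcript, the highest and lowest Baseline levels, the largest and smallest falls, members called in neither knockdown, those with most CpGs, the smallest adjusted p of each interaction, and the nearest in pattern to OR51B4. OR6Q1, OR51S1 and the runs of Cl.9 were named after their values were seen. The high stretches, OR51B4 to OR51I2 and OR4D6 to OR10V1, were picked by their own Baseline mC.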

Additional observations from a re-analysis of the deposited data

Results flagged for a closer look

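The difference between the shRNAs was tested as an interaction and passed for 17 members at Knockdown, with the smaller fall under shUHRF1, and for 94 at Recovery, with the lower level under shUHRF1. These are 10.2% and 56.3% of the members tested, against 82.8% and 59.9% of all genes. At Knockdown the log2 odds were 1.12 for OR2AT4, 1.81 for OR10V1, 1.29 for OR51M1, 0.93 for OR51B5 and 1.16 for OR4D9. At Recovery they were -1.49 for OR4D9, -1.14 for OR9Q1, -3.09 for OR51B6, -1.49 for OR10A2 and -1.24 for OR5A1. OR51B6 had 100% mC in Cl.6 at Baseline, where the odds are least certain. In the olfactory signalling list the test was passed by 13 of 19 genes at Knockdown and 15 at Recovery, and in the beta-globin list by 2 and 4 of 5, in the same directions and beside the same shares of all genes. Both beta-globin counts include HBG2 and HBE1, which share most of their CpGs. In all of these interactions the targeted gene, clonality and the count table cannot be told apart.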

How the results depend on the processing

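Of the main values recomputed under the alternatives, 222 stayed within 1.5 times or within the spread between populations, 42 moved and 5 reversed. With the 1 kb upstream alone, where 65 members could be tested, 60 were called lower under shUHRF1, 61 under shDNMT1 and 46 at shUHRF1 Recovery, with 85.6%, 87% and 66.7% of all genes, and the interactions were called in 2 and 13, with 10.1% and 17.9% of all genes. With the coding sequence alone, with 144 tested, the interactions were called in 10 and 50, with 47.6% and 40% of all genes. Without the replicate block, that is without pairing by population, 63 members were called at shUHRF1 Recovery and 0 in either interaction, with 46.8%, 0% and 0% of all genes, and limma called 42 in the Knockdown interaction, with 85.4%. Leaving out 1 population moved the Knockdown interaction between 3 and 76 calls, with 29% and 93.9% of all genes, and the Recovery interaction between 1 and 137, with 9.13% and 82.8%. The cause was not tested.

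The mean Baseline level from summed reads, 54.2%, was 55.4% as a mean over CpGs, 42.9% as a median over members, 53.4% in coding sequence, 46.9% upstream and 47.7% without OR51B5 and OR9Q1, an alternative chosen after seeing the data. The shDNMT1 Knockdown change was -29.3, -23.1, -27.0, -23.4 and -24.3 points in the same order. The shDNMT1 Recovery change was -1.25 as a mean over CpGs, -0.834 as a median over members, -0.595 in coding sequence, -0.0841 upstream and -0.411 without these genes, so its size depended on the summary. From pooled counts the Baseline difference was -20.6 points against all other genes, -4.84 against other chromosomes' receptors and -13.9 against neighbours. Between classes it was 12.0, with OR51B5 weighing most in class I. Against other chromosomes' receptors the pooled difference in Knockdown change was 0.098 and that in the share kept -3.05. The class difference in Knockdown change, -0.331 from medians and -1.34 from pooled counts, ran from -0.964 to 0.0686 in medians with 1 population left out, reversing without Cl.9 (0.0686) or R2 (0.0369). The density difference at Baseline was -21.6 with 35 bp and -27.2 without OR51B5 and OR9Q1. The DRY difference at Baseline reversed as a mean over CpGs (-0.436) and without Cl.3 (-0.0174 to 0.714 over the populations left out), and among low-density CpGs, also chosen after seeing the data, was 3.23, with -0.306 for the Knockdown change and 2.49 for the share kept. Single genes that reversed, judged by sign alone, were OR8D1 at the Recovery interaction (0.0262) and HBE1 at the Knockdown interaction (-0.168) in coding sequence, and ADCY3 (-0.167) and GNAL (-0.0366) at the Knockdown interaction upstream. With at least 100 reads in every library, 155 members were tested and the interactions were called in 17 and 89, with 83.3% and 60.1% of all genes.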
